A study of Mus musculus with 28 samples.

Results

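The comparison described here is between cells that were exposed to a p38 inhibitor during reprogramming (p38i) and cells that were exposed to it only before reprogramming (pre-p38i), both collected on day 5 of induction. Its members are the libraries whose labels name p38i or pre-p38i on day 5, 2 of each, or 4 of the 28 libraries of the series. The starting cells were primary mouse embryonic fibroblasts (MEFs), labelled wild type, which the study's methods describe as made from embryos of the OG2 line, in which Oct4 control drives GFP, crossed with 129 mice. All 4 libraries come from cells that carried retroviral Oct4, Klf4 and Sox2 (OKS) and were kept in iCD1, a chemically defined induction medium, and the inhibitor was SB203580 in both groups. DMSO cells of the same day, induced without inhibitor, are given beside them. What differs between the groups is the window of exposure, so an effect of the inhibitor present at collection and an effect left by pretreatment cannot be told apart from these libraries alone, and the DMSO values show on which side of the uninhibited cells each group lies.

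The p38 kinases are stress-activated MAP kinases, and SB203580 blocks the catalytic activity of the α and β isoforms without removing the proteins. During reprogramming, fibroblasts shut down their mesenchymal programme, switch on epithelial genes in a mesenchymal-to-epithelial transition, divide fast, and much later activate the pluripotency network. Cells respond to foreign nucleic acid and to interferon by switching on a set of defence genes: GTPases that attack vacuoles of intracellular parasites, the antigen-processing machinery of MHC class I, and antiviral effectors. Many of these genes carry a promoter element, the interferon-stimulated response element.

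The values are whole numbers read as TPM (transcripts per unit of library total), a share that is already scaled for gene length. Replicate libraries correlated at 0.982 in p38i and 0.985 in pre-p38i (Pearson's r across genes on the log2 scale, which are not independent). The labels do not say that replicates came from separate cultures, so the p-values measure the spread between these libraries, which may be technical. One library stands apart. In p38i replicate 2, genes of ribosomal RNA sequence took 1.97% of the total, against 0.186% in p38i replicate 1 and 0.0973% and 0.0915% in pre-p38i, and the named genes' calls that were lost and list counts that moved by over 1.5 times without it are given both ways. The fibroblast label was set beside 12 fibroblast markers. All 12 had a value above 0 in at least 1 of the 4 libraries. This is a low bar, which between 13609 and 14100 genes passed in each library, so it is no test of the label. The summed value of the markers was 5642 and 5458 in p38i, 3791 and 3598 in pre-p38i, and 15283 and 14588 in untreated MEFs. Of the 139 genes named, 43 share at least 200 near-identical bases with another gene or overlap one, so their values may hold reads of the other. Beside the copies given with their results, these are Gbp4, Psmb8, Psmb9, Tap1, Isg15, Ccne2, Uhrf1, Cdkn1c, Krt8, Nanog, Dppa3, Dppa5a, Zfp42, Ctgf, Tagln, Ctsd, Ctsl, Hspb1, Jund, Trp53, Cdkn1a, Gadd45a, Hsp90b1, P4ha2, Lyz2, mt-Atp6, mt-Nd3 and mt-Nd4. In bulk RNA, a lower value can mean fewer cells of a kind or less RNA per cell, and these cannot be told apart.

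Differences are given as p38i minus pre-p38i on the log2(value + 1) scale, with the standard error (SE) of a limma fit over all 28 libraries, and a gene is called when its adjusted p-value is under 0.05. Of 13230 genes tested, 6280 were called (47.5%), 2162 of them higher in p38i (16.3%) and 4118 lower (31.1%). A log2 difference of 1 or more in either direction was seen in 378 of the higher genes (2.86% of all tested) and 1078 of the lower ones (8.15%). The median of all genes stood at -0.12 on this scale. When each library was centred on its median gene, 3125 were higher and 2966 lower, so that 51.3% of the calls were in the higher direction instead of 34.4%, and with quantile normalization the share was 52.9%. Directions are therefore read against -0.12, and the lists below are set beside it. The values of the 2 groups did not overlap for 66.1% of all genes tested, so a lack of overlap is common here. For a single gene, the exact permutation test (2 libraries a group, two-sided) has 0.333 as its smallest possible p-value.

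Most of the genes with the largest falls in p38i were interferon-inducible, and promoters of this group are shown first. RefSeq gives promoter windows for 10 of the 18 genes in the list of immunity-related GTPases (IRG) and guanylate-binding proteins (GBP), enzymes that coat and break the vacuoles of intracellular pathogens. All 10 held the letters GAAA, any 2 bases and GAAA again on either strand within 250 bases before and 50 after the start, against 3.99% of all 27025 genes with a window. Many of these genes are neighbouring duplicates of one another, so the matches are not independent. In the list of antiviral interferon genes 53.8% of the genes with a window held the letters, and in the list for MHC class I 27.8%. The 120 bases before the start of 4 of the GTPase genes follow, from RefSeq on GRCm38.p6, 5′ to 3′ along the gene's strand, with the element in capitals.
Tgtp2 (chr11:49064213-49064332, minus strand): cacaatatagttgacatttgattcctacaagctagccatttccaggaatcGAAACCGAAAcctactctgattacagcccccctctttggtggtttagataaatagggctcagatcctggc
Gm12250 (chr11:58183723-58183842, plus strand): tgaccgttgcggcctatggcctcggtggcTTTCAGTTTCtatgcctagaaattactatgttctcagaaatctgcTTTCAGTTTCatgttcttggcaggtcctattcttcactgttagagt
Igtp (chr11:58199436-58199555, plus strand): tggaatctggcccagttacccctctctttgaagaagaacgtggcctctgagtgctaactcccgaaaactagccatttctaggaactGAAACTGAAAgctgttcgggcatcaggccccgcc
Gbp2 (chr3:142620543-142620662, plus strand): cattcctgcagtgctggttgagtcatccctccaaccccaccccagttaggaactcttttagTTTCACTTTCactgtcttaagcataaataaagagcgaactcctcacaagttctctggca
In Gm12250 and Gbp2 the capitals are the same letters read from the other strand. The match ends 61 bases before the start in Tgtp2, 25 in Igtp and 50 in Gbp2. Gm12250 holds 2 matches, which end 82 and 37 bases before its start. Not every gene of this kind has the letters so near its start, and the 120 bases before Ifi47, an IRG gene outside the list that is described below, held none. The pattern TTCNNNGAA, with N for any base, was searched too. It was in the windows of 70% of the IRG and GBP genes, 23.1% of the antiviral genes and 5.56% of the MHC class I genes. Of all genes with a window 9.55% held it. A match is a description of the letters and does not show that a factor was bound.

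All 16 tested IRG and GBP genes were called lower in p38i (31.1% of all genes tested were), with a median log2 difference of -3.23 against -0.12 over all genes. Tgtp2, a T-cell-specific GTPase of the IRG family, was listed at 1 and 2 in p38i, 260 and 303 in pre-p38i, and 180 and 128 in DMSO. Its log2 difference was -6.85 (SE 0.30, limma, adjusted p = 1.41e-12). Tgtp2 and Tgtp1 are near-identical copies, so the split of reads between them is uncertain, and summed they stood at 130 and 121 in p38i, 978 and 1061 in pre-p38i, and 1042 and 964 in DMSO. The pair was thus lower in both p38i libraries than in any library of the other groups, by a smaller factor than Tgtp2 alone. Iigp1, a GTPase that loads onto the parasitophorous vacuole, was at 2 and 2 in p38i, 115 and 123 in pre-p38i, and 115 and 111 in DMSO (log2 difference -5.32, SE 0.21). Igtp, known as Irgm3, a regulator that keeps the effector GTPases off the cell's own membranes, was at 22 and 18 in p38i, 345 and 368 in pre-p38i, and 244 and 231 in DMSO. In both GTPases the p38i libraries were far below those of the other groups, and DMSO stood near pre-p38i. Gbp2, a guanylate-binding protein, was at 37 and 33 in p38i, 400 and 429 in pre-p38i, and 299 and 285 in DMSO (log2 difference -3.53, SE 0.20, limma, adjusted p = 4.7e-11). Gbp4, of the same family, was at 3 and 1 in p38i against 37 and 46 in pre-p38i, and Ifi47, an IRG protein outside the list, at 18 and 16 against 321 and 345. Gm12250 and Gm4951, further genes of the family, differed by -5.12 and -4.51. The summed value of the 18 genes was 503 and 475 in p38i, 3322 and 3573 in pre-p38i, 2977 and 2866 in DMSO, and 29 and 35 in untreated MEFs. The family was therefore low in MEFs, above them in all 3 induced groups of day 5, and least so in p38i.

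**Figure D1:**
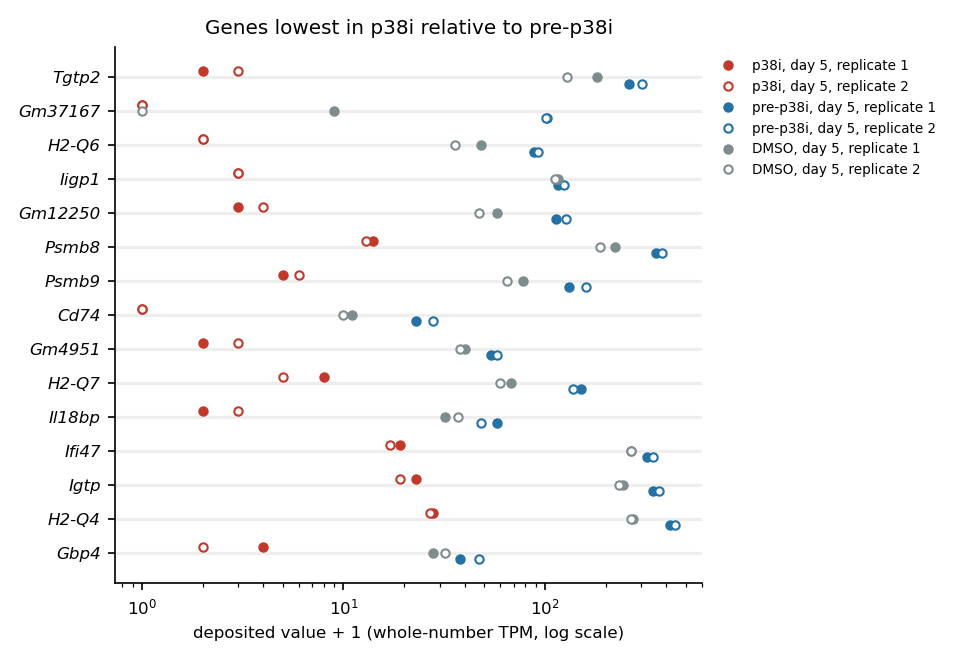
Deposited value plus 1 (whole-number TPM, log scale) of the 15 genes with the largest fall in p38i relative to pre-p38i, with 1 point per library and replicate 2 open. In 14 of the 15 genes the DMSO libraries lie nearer to pre-p38i than to p38i, the exception being Gm37167, where 1 DMSO library is at 8 and the other at 0.

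Genes of the MHC class I pathway, which cuts cytosolic proteins into peptides and shows them at the cell surface, moved with the GTPases. Of 20 tested, 19 were called lower in p38i and none higher, with a median of -1.97. The immunoproteasome subunits Psmb8 and Psmb9, which replace the constitutive catalytic subunits under interferon, gave similar profiles. Psmb8 was at 13 and 12 in p38i, 355 and 381 in pre-p38i, and 222 and 186 in DMSO. Psmb9 was at 4 and 5 in p38i, 131 and 159 in pre-p38i, and 77 and 64 in DMSO. Their log2 differences were -4.77 (SE 0.42) and -4.73 (SE 0.22). Tap1, a subunit of the peptide transporter, was at 30 and 29 in p38i, 255 and 255 in pre-p38i, and 179 and 182 in DMSO. H2-K1, a classical heavy chain, was at 277 and 268 in p38i, 2250 and 2356 in pre-p38i, and 1591 and 1383 in DMSO (log2 difference -3.07, SE 0.07, limma, adjusted p = 1.33e-16). B2m, the light chain they all share, was at 2930 and 2875 in p38i and 6312 and 6781 in pre-p38i, with 6056 and 5699 in DMSO, a smaller difference of -1.17 (SE 0.04). Enzymes, transporter and both chains were lower in p38i, with DMSO between the groups in each of these 5 genes. The non-classical heavy chain genes H2-Q6, H2-Q7 and H2-Q4 differed by -5.49, -4.51 and -3.97. These genes and H2-K1 share near-identical stretches with other H2 genes, so the share of each is uncertain, and H2-Q6 and H2-Q7 summed were at 8 and 5 in p38i and 237 and 228 in pre-p38i. Pdia3, a chaperone of the loading complex that also folds other glycoproteins, was at 636 and 672 in p38i and 652 and 669 in pre-p38i, and was not called. Cd74, the invariant chain of the separate MHC class II pathway, was listed at 0 and 0 in p38i, 22 and 27 in pre-p38i and 10 and 9 in DMSO.

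The antiviral effectors differed less. Of 38 tested, 35 were called lower in p38i and none higher, with a median of -1.10, and 21 of them by at least 1. Oas1g, one of the enzymes that make the oligoadenylate signal for RNase L, was at 9 and 9 in p38i and 48 and 48 in pre-p38i. It has a near-identical copy, Oas1a, and summed they stood at 61 and 64 in p38i and 179 and 182 in pre-p38i, a smaller factor than for Oas1g alone. Oas3, of the same family, was at 9 and 7 against 34 and 35. Parp14, an ADP-ribosyltransferase, was at 11 and 9 against 41 and 44. Isg15, a ubiquitin-like modifier, differed by -1.43 (SE 0.21, limma, adjusted p = 1.2e-05). Usp18, the protease that removes Isg15 and dampens the interferon receptor, was at 89 and 82 in p38i, 94 and 106 in pre-p38i and 120 and 122 in DMSO, and was not called (log2 difference -0.22, SE 0.26, limma, adjusted p = 0.517). Without p38i replicate 2 the number of these effectors called lower was 26.

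Among 23 tested interferon receptors, kinases and transcription factors, 10 were called lower and 3 higher, beside 31.1% and 16.3% of all genes. The median was -0.22. Irf1, a transcription factor that interferon induces, was at 14 and 17 in p38i, 104 and 108 in pre-p38i, and 86 and 86 in DMSO. Nlrc5, the transactivator of MHC class I genes, was at 3 and 3 in p38i and 26 and 27 in pre-p38i, and Socs1, which blocks the receptor kinases, at 5 and 9 against 29 and 24. Irf1 was lower in p38i than in DMSO too. Ifngr2, a chain of the interferon γ receptor, went the other way, at 33 and 32 in p38i against 18 and 17 in pre-p38i. Ifnb1, the gene of interferon β, was at 0 in all 4 libraries, and Ifng was at 1 in 1 of them and at 0 in the others.

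Genes that carry out DNA replication and cell division were lower in p38i almost without exception. All 37 tested genes of mitosis were called lower, with a median of -1.45, and 36 of 37 genes of DNA replication, with a median of -1.26. Top2a, the topoisomerase that untangles sister chromatids, was at 57 and 48 in p38i, 171 and 170 in pre-p38i and 84 and 87 in DMSO (log2 difference -1.69, SE 0.07, limma, adjusted p = 5.97e-13). Bub1b, a kinase of the spindle checkpoint, was at 17 and 18 in p38i, 58 and 57 in pre-p38i and 30 and 33 in DMSO. Kif2c, a motor that depolymerizes microtubules at kinetochores, was at 13 and 14 in p38i, 45 and 44 in pre-p38i and 21 and 21 in DMSO. In each of them p38i was below DMSO and pre-p38i above it. Against DMSO, 35 of the 37 mitosis genes were called lower in p38i (18.7% of all genes), and 37 of 37 were called higher in pre-p38i (14.3% of all genes), 2 comparisons that share the DMSO libraries.

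The replication genes moved by similar amounts. Mcm5, a subunit of the replicative helicase, was at 40 and 36 in p38i, 115 and 119 in pre-p38i and 70 and 63 in DMSO (log2 difference -1.60, SE 0.09). Gins1, which links the helicase to the polymerases, was at 5 and 7 in p38i and 27 and 27 in pre-p38i, and Mcm10, which activates the helicase, at 10 and 9 against 36 and 29. Uhrf1, which recruits the maintenance methyltransferase to newly made DNA, was at 38 and 35 in p38i and 126 and 118 in pre-p38i. All 4 were called, with no overlap between the groups.

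Cytokinesis is the last step of division, in which the daughter cells part. Of 27 tested genes of the contractile ring, midbody and abscission, 17 were called lower and 2 higher, with a median of -1.30, and 16 lower and 5 higher after median centring. Aurkb and Cdca8, which form part of the chromosomal passenger complex, were at 21 and 23 and at 22 and 21 in p38i, and at 69 and 62 and at 68 and 60 in pre-p38i. Cep55, which gathers the abscission machinery at the midbody, was at 5 and 7 in p38i, 27 and 21 in pre-p38i and 14 and 12 in DMSO (log2 difference -1.84, SE 0.16). Cit, a kinase of the midbody, was at 3 and 3 against 11 and 11. Chmp4b, a membrane-cutting subunit of ESCRT-III that cells also use outside division, was at 229 and 232 in p38i and 229 and 222 in pre-p38i. It was not called, and 8 of the 27 genes in all were not.

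Promoters of division genes are known for a short element, the cell cycle genes homology region. The letters TTTGAA on either strand were present in the windows of 71.0% of the 31 mitosis genes that have one, in 47.8% of the cytokinesis genes and in 16.1% of the replication genes, against 20.2% of all genes. The 120 bases before the start of a mitosis gene and a cytokinesis gene are shown with the letters in capitals.
Top2a (chr11:99024190-99024309, minus strand): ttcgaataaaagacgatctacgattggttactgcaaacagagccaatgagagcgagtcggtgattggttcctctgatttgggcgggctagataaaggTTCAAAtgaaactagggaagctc
Cep55 (chr19:38054921-38055040, plus strand): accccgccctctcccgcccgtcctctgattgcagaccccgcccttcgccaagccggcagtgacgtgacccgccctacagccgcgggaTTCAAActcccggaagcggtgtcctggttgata
The element ends 18 bases before the start in Top2a and 28 in Cep55, and both carry it on the opposite strand. The 120 bases before Bub1b and Cdca8 held none, nor did those before another start of Cep55 (chr19:38054864-38054983, plus strand).

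The regulators of entry into the cycle were mixed, with 12 of 22 called lower and 6 higher, beside 31.1% and 16.3% of all genes. E2f2, a transcription factor of S phase, was at 2 and 2 in p38i and 9 and 9 in pre-p38i, and Ccne2, a cyclin of the start of S phase, at 6 and 8 against 21 and 15. Rbl1, a pocket protein that is itself induced in dividing cells, was at 9 and 8 against 24 and 24. The inhibitor Cdkn1c, which blocks cyclin-dependent kinases and is imprinted, was at 37 and 38 in p38i, 12 and 12 in pre-p38i and 12 and 19 in DMSO (log2 difference 1.57, SE 0.18, limma, adjusted p = 8.56e-07). The list holds activators and inhibitors of the cycle, and both kinds had members called in each direction.

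Epithelial genes were lower in p38i as well. Of 28 tested epithelial genes, 22 were called lower and none higher, with a median of -1.29, and 18 were called lower without p38i replicate 2. Cdh1 (E-cadherin), the adhesion molecule of epithelia, was at 36 and 32 in p38i, 138 and 137 in pre-p38i and 67 and 67 in DMSO. Its log2 difference was -1.99 (SE 0.10, limma, adjusted p = 3.9e-12). Krt8, a keratin of simple epithelia, was at 6 and 8 in p38i, 65 and 66 in pre-p38i and 19 and 17 in DMSO. Cldn3, of the tight junction, was at 1 and 0 in p38i and 11 and 7 in pre-p38i. All 3 genes were listed at 0 in untreated MEFs and had the order pre-p38i, DMSO, p38i. Elf3, an epithelial transcription factor, was at 4 and 3 in p38i and 31 and 29 in pre-p38i. Krt19, another keratin, was at 5 and 5 against 30 and 26, but differs from the others in standing at 34 and 25 in untreated MEFs. Against DMSO, 17 of the 28 were called lower in p38i (18.7% of all genes) and 10 higher in pre-p38i (14.3% of all genes).

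Pluripotency genes were low in every group on day 5, and most of those tested were called lower in p38i. Of 35 listed, 14 stood at 0 in all 4 libraries and 18 were tested, of which 12 were called lower and none higher, with a median of -0.96. Nanog, a core pluripotency factor, was listed at 0 and 0 in p38i, 3 and 3 in pre-p38i and 0 and 1 in DMSO, and Dppa3 was at 0 in all of them. Gdf3, a TGF-β ligand of the early embryo, was at 8 and 10 in p38i, 46 and 40 in pre-p38i and 26 and 26 in DMSO. Zfp42 (Rex1), a zinc finger protein of embryonic stem cells, was at 5 and 4 in p38i, 22 and 22 in pre-p38i and 14 and 14 in DMSO. Gdf3 differed by -2.14 (SE 0.16) and Zfp42 by -2.07 (SE 0.29), with no overlap between the groups.

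The reprogramming factors themselves, whose viral and endogenous transcripts cannot be told apart in these values, differed by much less. Pou5f1 (Oct4) was at 2472 and 2319 in p38i, 2886 and 2862 in pre-p38i and 2944 and 3117 in DMSO (log2 difference -0.26, SE 0.05, limma, adjusted p = 8.28e-05). Klf4 was at 698 and 596 against 834 and 784 (log2 difference -0.33, SE 0.08, limma, adjusted p = 0.00316), a call that was lost without p38i replicate 2 (adjusted p = 0.081, limma). Sox2 was at 914 and 784 against 1059 and 1061 and was not called.

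Mesenchymal genes lay in the opposite direction. Of 16 tested mesenchymal genes 10 were called higher in p38i (16.3% of all genes tested were) and 2 lower, with a median of 0.55, and without p38i replicate 2 the counts were 9 and 1. Twist1, a transcription factor that represses E-cadherin, was at 161 and 153 in p38i, 108 and 110 in pre-p38i and 141 and 128 in DMSO (log2 difference 0.52, SE 0.06, limma, adjusted p = 1.23e-06). Zeb1, a repressor of the same kind, was at 18 and 19 in p38i, 14 and 15 in pre-p38i and 15 and 19 in DMSO (log2 difference 0.33, SE 0.11, limma, adjusted p = 0.0171), and without p38i replicate 2 its call was lost (adjusted p = 0.096, limma). Snai2, also a repressor of E-cadherin, was at 11 and 10 in p38i and 6 and 5 in pre-p38i. Vim, the intermediate filament of mesenchymal cells, was at 3557 and 3388 in p38i, 2022 and 1960 in pre-p38i and 2530 and 2787 in DMSO.

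In the extracellular matrix of fibroblasts, 27 of 43 tested genes were called higher in p38i and 5 lower, with a median of 0.37, and without p38i replicate 2 the counts were 27 and 3. Tnc, a matrix protein of wounds and embryos, was at 108 and 104 in p38i, 18 and 17 in pre-p38i and 58 and 66 in DMSO (log2 difference 2.53, SE 0.09, limma, adjusted p = 3.06e-14). Aebp1, which stabilizes collagen, was at 193 and 184 in p38i, 34 and 34 in pre-p38i and 99 and 105 in DMSO. Grem1, a secreted antagonist of BMP, was at 232 and 237 in p38i, 44 and 44 in pre-p38i and 171 and 193 in DMSO. Timp2, an inhibitor of matrix proteases, was at 794 and 780 in p38i, 184 and 179 in pre-p38i and 443 and 478 in DMSO. In these 4 genes p38i was highest, pre-p38i lowest and DMSO between them. The main fibrillar collagen did not follow this order. Col1a1 was at 295 and 270 in p38i, 273 and 244 in pre-p38i and 418 and 507 in DMSO, against 4164 and 3867 in untreated MEFs, and was not called. The summed value of the list was 10262 and 10051 in p38i, 6989 and 6635 in pre-p38i and 10443 and 11369 in DMSO, so for the list as a whole p38i stood close to DMSO and pre-p38i apart from both. Against DMSO, 37 of the 43 genes were called lower in pre-p38i (11.3% of all genes), while in p38i 19 were lower (18.7%) and 9 higher (7.87%).

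Targets of TGF-β and YAP, the signals of stiff matrix and myofibroblasts, were called higher in 11 of 20 and lower in 2, with a median of 0.49, and after median centring in 12 and none. Ctgf, a matricellular protein and a standard readout of both signals, was at 381 and 386 in p38i, 133 and 135 in pre-p38i and 304 and 319 in DMSO (log2 difference 1.51, SE 0.07). Tagln, an actin-binding protein of smooth muscle, was at 24 and 19 in p38i, 5 and 5 in pre-p38i and 20 and 18 in DMSO. Both had DMSO near p38i. Acta2, smooth muscle actin, was at 46 and 36 in p38i and 43 and 34 in pre-p38i, after 6180 and 5867 in untreated MEFs, and was not called. Among contractile genes 8 of 17 were called higher and 2 lower, beside 16.3% and 31.1% of all genes.

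Lysosomal genes were called higher in p38i in most cases. Of 41 tested genes of lysosomes and of TFEB and MITF, the transcription factors that drive them, 35 were called higher and 1 lower, with a median of 0.67. Ctsd, the aspartic protease of lysosomes, was at 2257 and 2213 in p38i, 819 and 799 in pre-p38i and 1564 and 1609 in DMSO (log2 difference 1.46, SE 0.04, limma, adjusted p = 3.4e-16). Ctsl, a cysteine protease, was at 1233 and 1362 in p38i, 541 and 534 in pre-p38i and 1138 and 1181 in DMSO. Gpnmb, a membrane glycoprotein of lysosomes and melanosomes, was at 175 and 149 in p38i, 30 and 32 in pre-p38i and 72 and 82 in DMSO (log2 difference 2.34, SE 0.08). Rragd, a GTPase of the amino acid sensor at the lysosome, was at 32 and 32 in p38i, 8 and 8 in pre-p38i and 10 and 12 in DMSO. Gpr143, a melanosome receptor outside the list, was at 20 and 17 in p38i against 1 and 3 in pre-p38i. Proteases, sensor and melanosomal genes were all higher in p38i than in either other group. Against DMSO, 23 of the 41 were called higher in p38i (7.87% of all genes) and 28 lower in pre-p38i (11.3% of all genes). For the factors, values are given for Tfe3 and Tfeb, which were not higher and were added after their values were seen. They are not given for Mitf, so nothing is said here of the factors as a group. Tfe3 was the member called lower, at 56 and 53 in p38i and 76 and 70 in pre-p38i, and Tfeb was at 9 and 9 against 12 and 11.

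The element that TFEB binds, searched as CACGTGAC on either strand, was in the windows of 27.3% of the 33 lysosomal genes that have one and of 2.55% of all genes. In the 120 bases before the start of Ctsd, shown with the letters in capitals, the match ends 91 bases before the start. The same stretch of Gpnmb held none.
Ctsd (chr7:142387828-142387947, minus strand): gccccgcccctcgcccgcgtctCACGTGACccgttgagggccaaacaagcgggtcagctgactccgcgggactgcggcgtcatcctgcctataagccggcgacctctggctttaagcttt

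**Figure D2:**
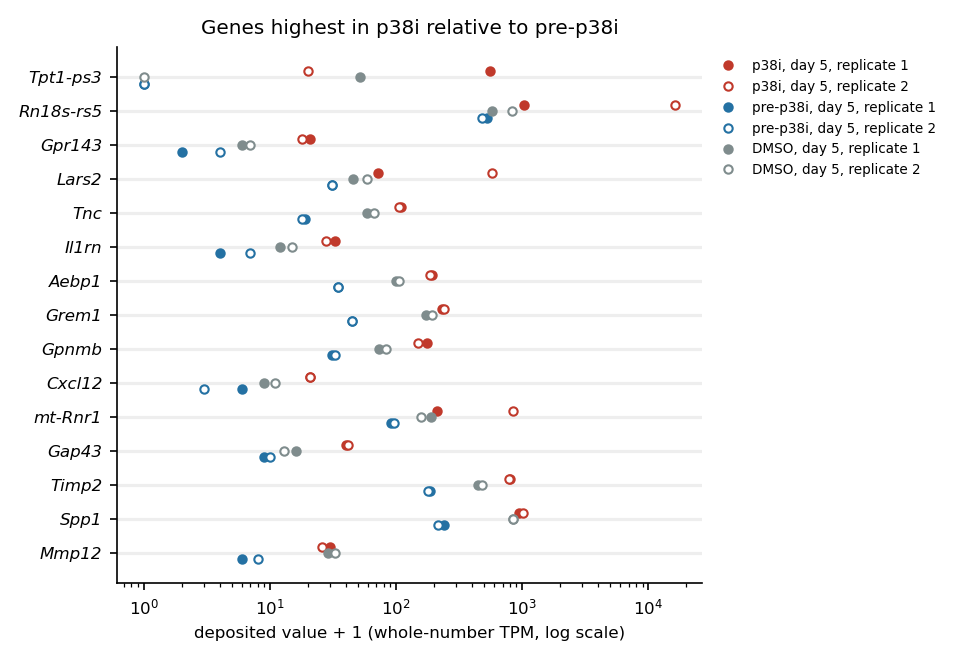
Deposited value plus 1 (whole-number TPM, log scale) of the 15 genes with the largest rise in p38i relative to pre-p38i, with 1 point per library and replicate 2 open. In Rn18s-rs5, Lars2 and mt-Rnr1, p38i replicate 2 lies far above replicate 1, and in Tpt1-ps3 the reverse holds, at 550 in replicate 1 and 19 in replicate 2, a pseudogene whose reads cannot be told apart from those of its near-identical copies.

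Several further secreted or membrane proteins were among the largest rises. Spp1 (osteopontin), a phosphoprotein of bone matrix and inflammation, was at 939 and 1023 in p38i, 239 and 215 in pre-p38i and 844 and 849 in DMSO. Mmp12, an elastase, was at 29 and 25 in p38i, 5 and 7 in pre-p38i and 28 and 32 in DMSO, so that pre-p38i was the group that stood apart. Il1rn, the antagonist of the interleukin-1 receptor, was at 32 and 27 in p38i, 3 and 6 in pre-p38i and 11 and 14 in DMSO. Gap43, a growth-cone protein, was at 39 and 41 in p38i, 8 and 9 in pre-p38i and 15 and 12 in DMSO. For these last 2 genes p38i stood apart from both other groups. Cxcl12, a chemokine of stromal cells, was at 20 and 20 in p38i against 5 and 2 in pre-p38i. Other chemokines went down, among them the interferon-inducible Cxcl10, at 3 and 0 against 14 and 10, and Ccl5, at 1 and 1 against 10 and 9. In the list of cytokines and chemokines 9 of 23 were called lower and 4 higher, beside 31.1% and 16.3% of all genes.

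**Figure D3:**
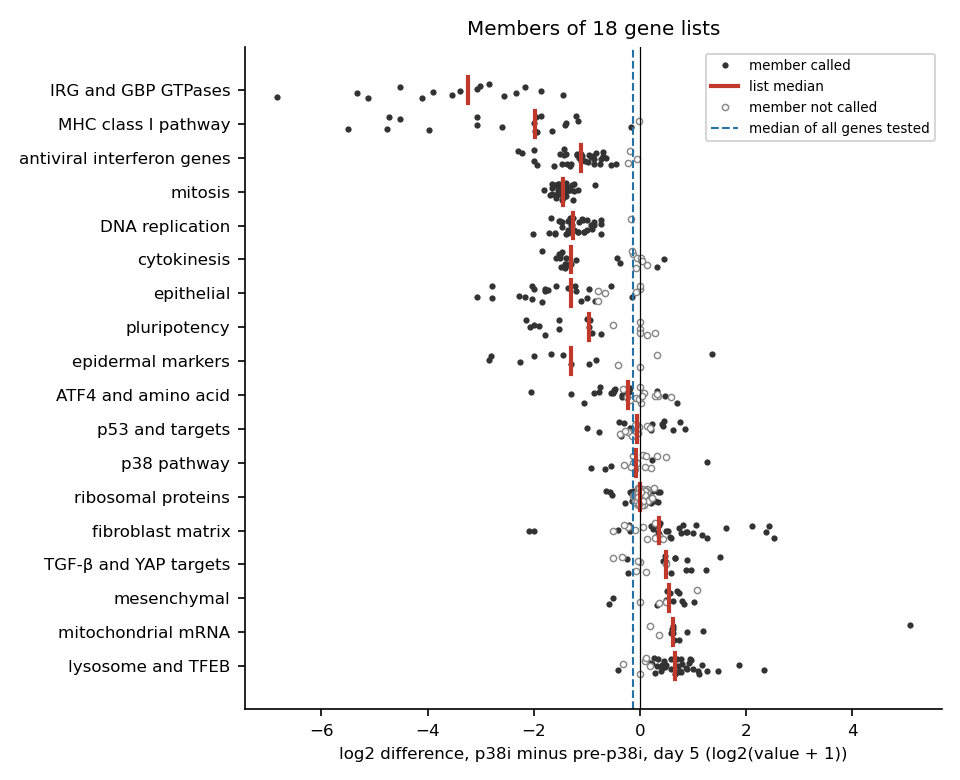
Log2 difference, p38i minus pre-p38i on day 5, for each tested member of 18 gene lists (filled when called, open when not), with the list median as a red bar and the median of all genes tested, -0.12, as a dashed line. The 3 interferon lists and the 3 division lists have medians between -3.23 and -1.10, and the lysosomal list lies highest at 0.67.

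The transcripts most affected by the library that stands apart were those of ribosomal RNA sequence. Rn18s-rs5, a copy of 18S ribosomal RNA, was at 1035 and 16361 in p38i, 528 and 480 in pre-p38i and 573 and 828 in DMSO. Its log2 difference was 3.03 with both p38i libraries and 1.04 without replicate 2 (limma, adjusted p = 0.00034). Lars2, a mitochondrial leucyl-tRNA synthetase gene that was put in this list because ribosomal RNA reads can map to it, was at 71 and 572 against 30 and 30, a log2 difference of 2.71 with both libraries and 1.22 without replicate 2. The mitochondrial ribosomal RNAs mt-Rnr1 and mt-Rnr2 were at 209 and 843 and at 328 and 843 in p38i, and at 90 and 95 and at 184 and 192 in pre-p38i. These 4 were higher in replicate 1 as well, by a smaller amount. Gm42418, which overlaps a ribosomal RNA repeat, was at 49 and 788 in p38i and 116 and 92 in pre-p38i, and its log2 difference of 0.93 turned to -1.06 without replicate 2. Gm26917, a locus of the same kind, was at 16 and 107 against 17 and 18, and its difference of 1.21 went to -0.12. AY036118 was at 140 and 0 in p38i and at 0 in pre-p38i. Rn18s-rs5, Gm42418 and AY036118 share near-identical stretches, so the split of reads among them is uncertain. Libraries were made from poly(A)-enriched RNA, according to the labels, and ribosomal RNA carried through that step was not told apart here from ribosomal RNA content.

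**Figure D4:**
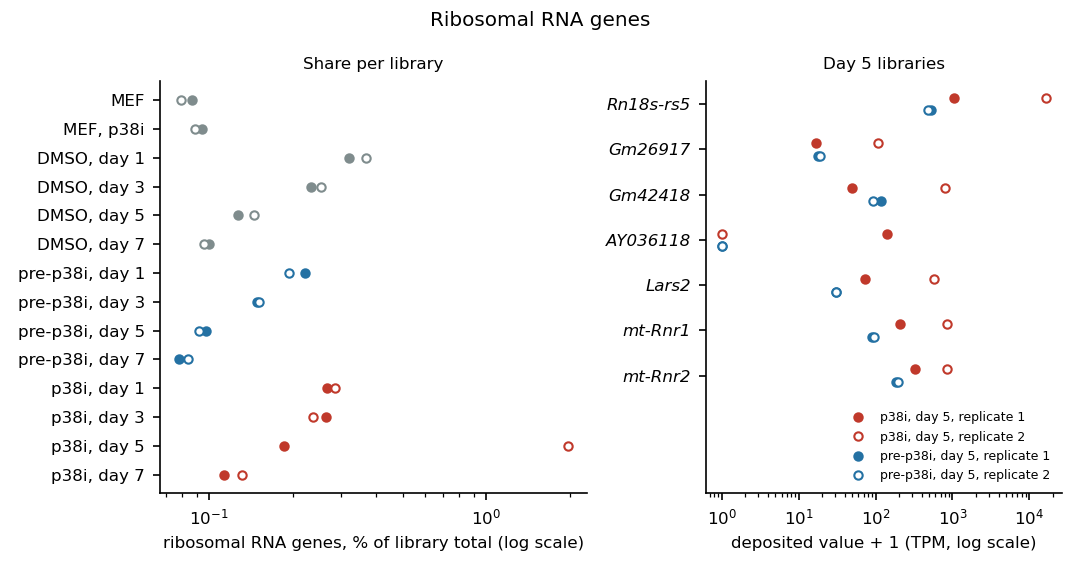
Left, share of each library's total taken by 7 genes of ribosomal RNA sequence (percent, log scale) for all 28 libraries, and right, the value plus 1 of each of the 7 genes in the 4 libraries compared, with replicate 2 open. Replicate 2 of p38i on day 5 is at 1.97%, while its replicate 1 is at 0.186%.

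That library weighed unequally on the lists. Without it, 5196 genes were called in place of 6280, 1336 of the calls were lost and 2 changed direction. The IRG and GBP genes called lower stayed at 16, those of mitosis at 37 and of MHC class I at 19, and the lysosomal genes called higher went from 35 to 33. The antiviral genes called lower went from 35 to 26 and the epithelial ones from 22 to 18. When the ribosomal RNA genes were taken out and the totals rescaled, 6221 genes were called.

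Mitochondrial mRNAs were higher in both p38i libraries. Of the 13 mRNAs that the mitochondrial genome encodes, 11 were called higher, with a median of 0.63, and together the 13 took 6.04% and 5.95% of the p38i libraries against 3.72% and 3.70% in pre-p38i and 4.78% and 4.50% in DMSO. mt-Nd4, a subunit of complex I, was at 3944 and 3525 in p38i, 2289 and 2168 in pre-p38i and 2938 and 2866 in DMSO. mt-Atp6, of the ATP synthase, was at 8949 and 9718 against 4618 and 3590. The value of mt-Nd3 was 383 and 647 in p38i but 0 and 211 in pre-p38i, and its call (adjusted p = 0.0441, limma) was lost without p38i replicate 2 (adjusted p = 0.16, limma). A higher share of these mRNAs lowers the share left for all others. Of 77 cytosolic ribosomal protein genes 13 were called higher and 13 lower, but 31 higher and 2 lower after median centring, so no direction is given for them.

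Few genes of the p38 pathway were called. Mapk14 (p38α) was at 45 and 45 in p38i, 42 and 44 in pre-p38i and 41 and 39 in DMSO. Mapk11 (p38β) was at 3 and 2 against 2 and 2, Mapk12 (p38γ) at 1 and 1 against 1 and 0, and Mapk13 (p38δ) at 20 and 19 against 18 and 13. None of the 4 isoforms was called. Map2k6, the kinase that activates p38, was called higher, at 21 and 25 in p38i, 9 and 9 in pre-p38i and 9 and 10 in DMSO (log2 difference 1.26, SE 0.13, limma, adjusted p = 2.23e-07). Hspb1, a small heat shock protein that the pathway phosphorylates, was called lower, at 136 and 134 against 249 and 264. The activator thus stood above both other groups while the isoforms did not differ detectably. Over the 18 tested genes of the pathway, 2 were called higher and 3 lower, beside 16.3% and 31.1% of all genes. After median centring 6 were higher and 2 lower.

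Immediate targets of MAP kinase signalling leaned higher, with 7 of 19 called higher and 2 lower, beside 16.3% and 31.1% of all genes. After median centring 10 were higher and 2 lower. Dusp1, a phosphatase that switches p38 and JNK off, was at 47 and 44 in p38i, 21 and 23 in pre-p38i and 31 and 30 in DMSO (log2 difference 1.02, SE 0.10). Etv4, a target of ERK, was at 47 and 36 against 65 and 62. In the AP-1 family 6 of 13 were called higher and 1 lower, beside the same shares of all genes, and 6 and none after median centring. Jund, a stable member of the family, was at 284 and 260 against 211 and 202. The differences in this family were all under 1 in size.

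Trp53, the gene of p53, was lower in p38i, at 130 and 118, than in pre-p38i, at 217 and 207, or in DMSO, at 184 and 199 (log2 difference -0.77, SE 0.07, limma, adjusted p = 1.36e-08). In the list of p53 and its targets 8 of 27 were called higher and 6 lower, beside 16.3% and 31.1% of all genes. The median was -0.06, and after median centring 10 were higher and 2 lower. Without p38i replicate 2 the counts were 5 higher and 3 lower. Cdkn1a (p21), the best-known target and a brake on the cell cycle, was at 811 and 811 in p38i, 825 and 822 in pre-p38i and 1027 and 1033 in DMSO. It was not called. Gadd45a, a stress sensor, was at 132 and 139 against 80 and 79, and Fas, a death receptor that interferon also induces, at 11 and 12 against 24 and 24.

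Stress and metabolism gave mixed counts, to be set beside 31.1% lower and 16.3% higher over all genes. In the ATF4 and amino acid response 20 of 37 were called lower and 4 higher, with a median of -0.22, and 13 lower and 6 higher after median centring. Wars, a tryptophanyl-tRNA synthetase that interferon γ induces, led the list at 212 and 196 in p38i, 817 and 889 in pre-p38i and 667 and 661 in DMSO (log2 difference -2.06, SE 0.07). Slc7a3, a transporter of cationic amino acids, was at 113 and 104 against 217 and 232. For the unfolded protein response the counts were 9 of 18 lower and 2 higher, and 5 lower and 4 higher after median centring, Hsp90b1, a chaperone of the endoplasmic reticulum, being at 457 and 473 against 622 and 628. In cholesterol and fatty acid synthesis 7 of 32 were higher and 10 lower, the lower count being near its share over all genes. After median centring 15 were higher and 7 lower, so no direction is given. In glycolysis and hypoxia 7 of 32 were also higher and 10 lower, with 10 higher and 8 lower after median centring and 4 higher and 8 lower without p38i replicate 2. Slc2a1, the glucose transporter Glut1, was at 39 and 43 against 77 and 76. P4ha2, a collagen prolyl hydroxylase, was at 25 and 24 against 11 and 7, so that the glycolytic list holds members that moved both ways. Mt1, a zinc-binding metallothionein, was at 2044 and 1917 against 1145 and 1218.

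Id genes and imprinted genes held some of the clearest single differences outside these groups. Id3, an inhibitor of differentiation that BMP induces, was at 11 and 8 in p38i, 42 and 41 in pre-p38i and 39 and 42 in DMSO, with a log2 difference of -2.03 (SE 0.10). Id1, its close relative, was at 15 and 15 in p38i, 39 and 45 in pre-p38i and 61 and 49 in DMSO. Both were lower in p38i than in either other group. Over the list of BMP signalling 4 of 15 were called lower and none higher, with 3 higher after median centring. The share called lower was below the 31.1% of all genes. Dio3, an imprinted gene whose enzyme inactivates thyroid hormone, was at 7 and 4 in p38i, 71 and 69 in pre-p38i and 20 and 19 in DMSO (log2 difference -3.49, SE 0.25). Igf2r, imprinted and the receptor that carries lysosomal enzymes, was at 137 and 130 in p38i, 67 and 68 in pre-p38i and 103 and 114 in DMSO.

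Markers of cell types that a MEF culture can hold were counted as well. Of 17 tested macrophage markers, 5 were called higher in p38i and 4 lower, beside 16.3% and 31.1% of all genes. Their summed value was 295 and 292 in p38i, 242 and 230 in pre-p38i and 679 and 690 in DMSO. Lyz2, the lysozyme of macrophages, was at 121 and 136 in p38i, 37 and 35 in pre-p38i and 270 and 261 in DMSO, while Marco, a scavenger receptor, was at 3 and 2, 22 and 17, and 50 and 56. C1qb, a complement component that defines tissue macrophages, was at 8 and 8 in p38i, 6 and 6 in pre-p38i and 25 and 20 in DMSO. Both inhibitor groups were thus below DMSO in these genes. Against DMSO, 14 of the 17 were called lower in p38i (18.7% of all genes) and 15 in pre-p38i (11.3%), with 1 called higher in each. Cd74, given above with MHC class II, is also in this list, and it was higher in pre-p38i than in DMSO. The part of the macrophage share in the interferon result was not tested. For epidermal markers 9 of 13 were called lower in p38i and 1 higher, beside 31.1% and 16.3% of all genes. Without p38i replicate 2, 7 were lower and none higher. The summed values were 54 and 65 in p38i against 156 and 143 in pre-p38i. Tgm3, an epidermal transglutaminase, was at 5 and 7 in p38i, 48 and 49 in pre-p38i and 41 and 39 in DMSO. Of 10 endothelial markers 4 were tested and none called by limma at an adjusted p under 0.05, while 1 was called higher without p38i replicate 2 and 2 after median centring, Pecam1, Tie1, Emcn and Sox18 being at 0 in all 4 libraries. In the list for trophectoderm and primitive endoderm 3 of 6 tested genes were called lower and none higher, and 2 were lower after median centring. In that for nerve and muscle 2 of 3 were called higher and 1 lower, the last neither after median centring nor without p38i replicate 2. These counts stand beside 31.1% lower and 16.3% higher over all genes, and no direction is read from lists this short.

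**Figure D5:**
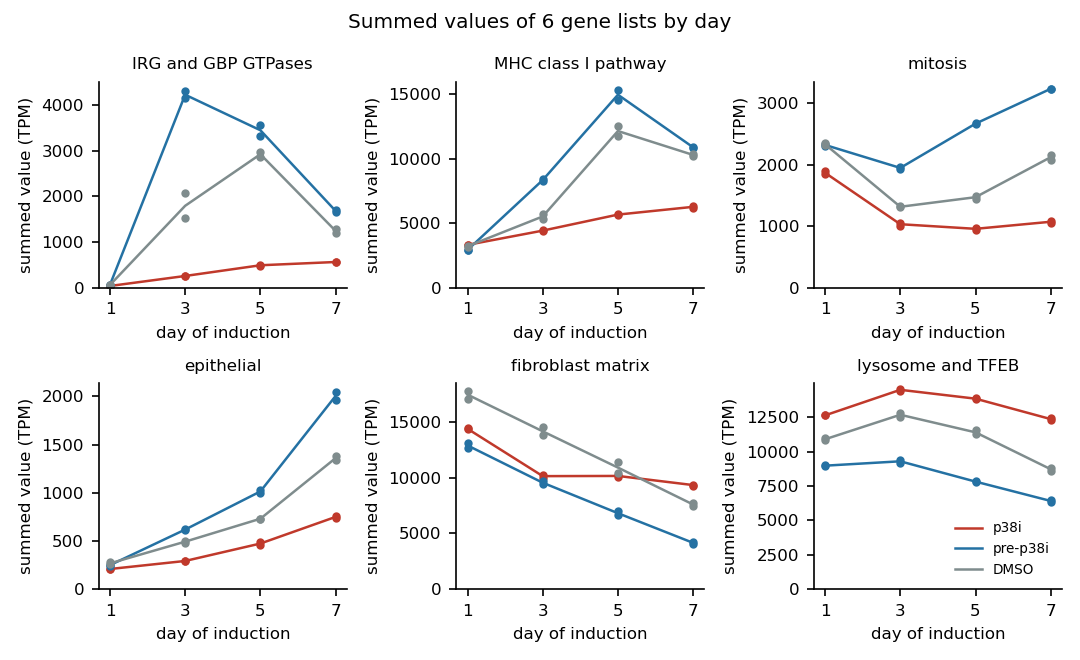
Summed value (TPM) of 6 gene lists on days 1, 3, 5 and 7 of induction, with points for the 2 libraries of each group and a line through their means, for p38i (red), pre-p38i (blue) and DMSO (grey). On day 5 the IRG and GBP sum is 503 and 475 in p38i, 3322 and 3573 in pre-p38i and 2977 and 2866 in DMSO.

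The same comparison on the other days shows how day 5 sits in the course. Between p38i and pre-p38i, 3729 genes were called on day 1 (28.2%, 8.25% of all genes being higher and 19.9% lower). The count was 5579 for day 3 (42.2%) and 7181 for day 7 (54.3%). For the IRG and GBP genes the median log2 difference of days 1, 3, 5 and 7 was 0, -4.42, -3.23 and -1.74 in turn, largest in size on day 3. The difference itself changed between day 5 and day 7 in 13 of the 16 genes, all upward (9.71% of all genes in that direction). For the mitosis genes the medians were -0.23, -0.84, -1.45 and -1.56, and the difference grew from day 3 to day 5 in 30 of 37 (4.67% of all genes in that direction), and from day 5 to day 7 in 2 (1.96% of all genes). For the matrix genes the medians were -0.12, -0.01, 0.37 and 1.10, and the difference rose between day 3 and day 5 in 30 of 43 genes (7.07% of all genes in that direction) and between day 5 and day 7 in 32. For the lysosomal genes they were 0.41, 0.41, 0.67 and 0.72, which makes this group higher in p38i from the first day on. The difference changed upward from day 3 to day 5 in 7 of the 16 IRG and GBP genes and in 25 of 38 antiviral genes, and downward in none of either. For MHC class I genes the median was -1.97 on both days, and 2 of 20 changed upward and 7 downward. From day 5 to day 7, 17 of the 20 changed upward and none downward, and the median of day 7 was -1.16. The IRG, GBP and antiviral differences thus narrowed from day 3 on, and those of MHC class I as a list only after day 5. Those of mitosis widened up to day 5 or beyond. The matrix genes were mixed at first, with 11 called higher and 14 lower on day 1 and 14 higher and 17 lower on day 3. On day 5 they were mostly higher, with 27 higher and 5 lower.

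The genes that set p38i and pre-p38i apart on day 5 were compared with the course of uninhibited cells, in DMSO libraries of days 3 and 7 that take no part in the day 5 comparison. Of the 4118 genes lower in p38i, 53.8% rose in DMSO from day 3 to day 7 and 5.80% fell, against 23.4% and 19.6% of all genes tested. Of the 2162 genes higher in p38i, 62.2% fell in DMSO and 2.78% rose. By this measure most genes lower in p38i were ones that rise during reprogramming, and most genes higher in p38i were ones that fall.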

How the data were processed

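Libraries were made by the submitters from oligo-dT-enriched RNA. The deposited values are whole numbers for 50600 genes that sum to between 991287 and 992537 per library, and they were read as TPM that the authors rounded down, a normalized score and not counts, so the depth is unknown. The submitters' processing notes name RSEM 1.3.0, Bowtie2 2.2.5 and bcl2fastq, and the builds mm10 and hg38 without their roles. The 13230 genes whose mean over the 28 libraries reached 1 were fitted on log2(value + 1) with limma 3.58.1 (R 4.3.3), with 14 groups of 2 libraries in 1 model, a trended prior and Benjamini-Hochberg adjustment, and the script was tested on simulated data. Fold differences on this scale are understated for low genes. Near-identical copies were searched for with BLAST 2.17.0 (95% identity over 200 bases). Promoter windows came from RefSeq, and the motifs were chosen with the results known.

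The comparison and the 38 gene lists were chosen with earlier results of these data known. Named genes were those the study names by RNA, the p38 isoforms and Trp53, the 15 largest rises and the 15 largest falls that had a mean of 10 or more, did not overlap between groups and were also called without p38i replicate 2, up to 4 called members with the largest change and up to 2 uncalled members with the highest mean per list (all members of lists of up to 10 genes), and the 5 largest changes in each direction for each difference between days. Gbp2, Tap1, H2-K1, B2m, Isg15, Ifngr2, Ifnb1, Ifng, Tfe3 and Tfeb were added after their values were seen. Alternatives were another pseudocount, other filters, median centring, quantile normalization, a fit to the libraries compared, a replicate block, rescaling without ribosomal RNA genes, a minimum change, and leaving out each library. The course in DMSO with genes called after median centring was added after the data were seen.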

Additional observations from a re-analysis of the deposited data

Results flagged for a closer look

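The difference between p38i and pre-p38i was tested for a change between days with the same limma fit. It changed from day 3 to day 5 in 1554 genes (11.7%) and from day 5 to day 7 in 1543 genes (11.7%), and the genes below had the largest changes. Each value is the later difference minus the earlier one on the log2(value + 1) scale.

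From day 3 to day 5, several interferon-inducible genes moved closer between the groups. Tgtp1 changed by 2.17, from 39 and 37 to 129 and 119 in p38i and from 1076 and 1000 to 718 and 758 in pre-p38i. Ifit3 and Ifit1, antiviral proteins that bind viral RNA, changed by 1.97 and 1.87, and Oit1 by 1.77. Ifit3 has a near-identical copy, Ifit3b, and on day 5 the pair summed was at 48 and 57 in p38i and 152 and 171 in pre-p38i. Among the other genes with large changes, Oit1 changed by 1.77. Penk, the precursor of enkephalin peptides, changed by 1.72, from 19 and 15 to 31 and 33 in p38i and from 78 and 80 to 48 and 40 in pre-p38i. The non-classical MHC genes H2-Q6 and H2-Q7 went the other way by -2.49 and -2.01, as pre-p38i went from 7 and 7 to 87 and 91 in H2-Q6 while p38i went from 0 and 0 to 1 and 1. Gm37167 changed by -8.46, Gm43118 by -3.12 and RP23-356D13.9 by -1.75. All 3 share near-identical stretches with other genes, and Gm37167 was at 0 and 11 in p38i on day 3.

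From day 5 to day 7, the difference closed or turned in Marco (3.42), in Cyp26a1 (2.59) and Cyp26b1 (2.57), enzymes that break down retinoic acid, and in the GTPases Iigp1 (2.44) and Gm4951 (2.22). On day 7 Marco was at 17 and 8 in p38i against 6 and 6 in pre-p38i, and Cyp26a1 at 14 and 16 against 6 and 8. Dppa5a, an RNA-binding protein of pluripotent cells, changed by -5.03 and on day 7 pre-p38i was listed at 50 and 41 while p38i was at 0 and 0. Mylpf, a muscle myosin light chain, changed by -3.13, with pre-p38i at 80 and 87 on day 7 and p38i at 4 and 4. Rac3 changed by -2.0 and the imprinted Peg10 by -1.76. Lars2 changed by -2.39, and on day 5 it was at 71 in p38i replicate 1 and 572 in replicate 2, the library with the high ribosomal RNA share.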

How the results depend on the processing

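The day 5 count of 6280 lay between 4200, in a fit to only the libraries compared, and 6605 without a filter, and between 5076 and 5214 when 1 library was left out. With a replicate block it was 6091. Replicate numbers did not pair the libraries (correlation of deviations 0.0192), and the block moved no count of calls over all genes by over 1.5 times. Among the lists it moved small counts, from 2 to 1 lower in TGF-β and YAP targets, from 1 to 2 lower in AP-1 and from 0 to 1 higher in BMP signalling. A minimum log2 difference of 1 left 1456 calls for day 5, 258 for the change from day 3 to day 5 and 394 for that from day 5 to day 7, and left 21 antiviral genes called lower, 8 matrix genes called higher and 8 lysosomal genes called higher. A fit to only the libraries compared called 931 and 915 genes for the 2 changes between days. Leaving out 1 library gave 921 to 1322 calls for day 3 to day 5, the lowest without pre-p38i replicate 1 of day 3, and 1023 without pre-p38i replicate 2 of day 5. With a minimum mean of 5, 7 pluripotency genes were called lower. With genes called after median centring, 61.0% of those lower in p38i rose in DMSO and 52.8% of those higher fell. Rn18s-rs5 and Lars2 alone took 0.112% and 1.71% of the p38i libraries and 0.0563% and 0.0514% of pre-p38i.

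Among 132 named genes with a value, 113 were called and 95 of these kept the call under every setting run. The sign turned in Cdkn1a (0.11 with median centring), in Pdia3 (0.11 with median centring, 0.023 with quantile normalization, -0.054 to 0.025 without 1 library) and in Acta2 (-0.085 to 0.26 without 1 library), none of which was called. Gm26917 ranged from -0.12 to 2.55 and Gm42418 from -1.06 to 2.92 without 1 library, the lowest in both without p38i replicate 2. Calls were lost without 1 library in Klf4 (p38i replicate 2), Zeb1 (p38i replicate 2, pre-p38i replicate 1), Tpt1-ps3 (p38i replicate 1), Gm43118 (p38i replicate 2, pre-p38i replicate 1), Gm26917 (either pre-p38i library) and mt-Nd3 (p38i replicate 1 or 2, pre-p38i replicate 1). In the fit to only the libraries compared, 12 named genes lost their calls, among them Rn18s-rs5, Lars2, mt-Rnr1 and mt-Rnr2. With a pseudocount of 0.1 the number was 6. The cause was not tested. The deposited values hold no depth, so the precision of low values is not known.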
